A study of Mus musculus with 3 samples.

Results

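The 10 genes described here, Lin28a, Lin28b, Hmga1, Hmga2, Igf2bp1, Igf2bp2, Igf2bp3, Trim71, Mycn and Arid3b, are classical targets of the let-7 microRNAs (miRNAs) that are active in the embryo and in many tumours. They were taken by name and are 10 of the 21028 protein-coding genes for which a 3′UTR is annotated in GENCODE mouse M21 (GRCm38). The data are peaks of Argonaute 2 (Ago2) binding in 3 libraries of N2A cells, a mouse neuroblastoma line, kept untreated under basal conditions. In HITS-clip, RNA is crosslinked to bound proteins with ultraviolet light (400 and then 200 mJ per square cm), an antibody pulls down Ago2, and the attached RNA fragments are sequenced. The labels put all libraries in 1 group and do not say whether the replicates were separate cultures. There was therefore no comparison between conditions and no test, and each value below is a description of these libraries with its spread over them.

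The libraries held 711377, 498071 and 829936 peaks in replicates 1, 2 and 3. The table gives no read counts, so depth was unknown, and where no peak is listed neither the transcript nor Ago2 binding can be called absent. Of 12 listed markers of the labelled cell type, 6 had 3′UTR peaks in each library, among them Hand2, Gata3, Isl1, Stmn2 and Map1b, 5 had them in 1 or 2 libraries, among them Dbh, Tubb3, Gap43 and Nefm, and Th had none. Of 12 listed markers of blood, liver, muscle and myelin-forming cells, 3 had a peak in every library, Ptprc and Mbp among them, and 6 had none in any. Of all genes, 23.9% had one in every library. The lists had median 3′UTRs of 1206 and 500 nt, and the share was 28.7% for 3′UTRs of 1000 nt up to 2000 nt, 16.5% for 500 nt up to 1000 nt and 5.13% for shorter ones.

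Let-7 is made late in development and lowers the output of mRNAs that carry its sites. The RNA-binding proteins LIN28A and LIN28B bind the let-7 precursors and block their maturation, and both mRNAs carry let-7 sites themselves, so that each side restrains the other. HMGA1 and HMGA2 are chromatin proteins, the IGF2BP proteins bind mRNAs of fetal tissues, TRIM71 is an RNA-binding ubiquitin ligase of stem cells, MYCN is a growth-promoting transcription factor known from neuroblastoma, and ARID3B is a DNA-binding protein. Ago2 carries the miRNA and reads the transcript mainly through the miRNA's seed, its bases 2 to 8.

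In the RefSeq table (GRCm38.p6), 11 mature names were found by searching for the seed of let-7a, among them miR-98 and miR-1961. Of these, 3 are shown because they share the seed, in capitals, and differ further along:
mmu-let-7a-5p: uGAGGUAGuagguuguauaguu
mmu-let-7g-5p: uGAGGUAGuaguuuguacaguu
mmu-miR-98-5p: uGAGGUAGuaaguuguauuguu

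A seed match in an mRNA is therefore CTACCTC. It is called 8mer when an A follows (CTACCTCA) and 7mer-m8 otherwise, and these forms were counted as sites. The shorter form TACCTCA, without a C before it, pairs with bases 2 to 7 and is called 7mer-A1, and it was counted separately. The 3′UTRs of the 10 genes held 22 sites, 13 of them 8mer, in every gene except Mycn, where 1897 of the 21028 genes held at least 1, and 14 further 7mer-A1 matches in 7 genes. The 10 genes were chosen as let-7 targets, so this richness in sites comes with the choice and is not a result.

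The sites below are those that the results turn on, with the match in capitals, read from GRCm38.p6 on the strand of the gene. For the genes with no site under peaks in at least 2 libraries, 1 site is shown for comparison.
Arid3b, 7mer-m8 (chr9:57790360-57790384, minus): atatttcaataaagctCTACCTCtt
Arid3b, 7mer-A1 (chr9:57791662-57791686, minus): gtcaggctcactgaaaTACCTCAga
Arid3b, 7mer-A1 (chr9:57791009-57791033, minus): agcttatgcacaaacaTACCTCAgc
Trim71, 8mer (chr9:114512470-114512495, minus): caacattgcctaagtcCTACCTCAgc
Trim71, 8mer (chr9:114509019-114509044, minus): tttggcaaaaagttgtCTACCTCAcg
Trim71, 7mer-A1 (chr9:114508268-114508292, minus): tgtcaccatgaagaaaTACCTCAat
Igf2bp3, 8mer (chr6:49086785-49086810, minus): gtgcatttttactcaaCTACCTCAgg
Lin28b, 7mer-m8 (chr10:45378647-45378671, minus): atatacttgttagtaaCTACCTCtg
Lin28b, 7mer-m8 (chr10:45378475-45378499, minus): tgtttacagcacatggCTACCTCcc
Lin28b, 7mer-A1 (chr10:45376869-45376893, minus): cattcagtgtttagatTACCTCAct
Lin28b, coding sequence, 7mer-m8 (chr10:45381377-45381401, minus): tgctaaagaatgcagtCTACCTCct
Lin28a, 8mer (chr4:134004549-134004574, minus): tgagatcgccacaaacCTACCTCAct
Mycn, 7mer-A1 (chr12:12936497-12936521, minus): ctaagtactgtaagaaTACCTCAat
Hmga2, 8mer (chr10:120364222-120364247, minus): cgccgacattcaatttCTACCTCAgc
Hmga1, 7mer-m8 (chr17:27563276-27563300, plus): ctcctctgttcacaaaCTACCTCtg
Igf2bp1, 8mer (chr11:95961776-95961801, minus): tgctgtgcgaagtaaaCTACCTCAag
Igf2bp2, 8mer (chr16:22059471-22059496, minus): aacacacaaataaaagCTACCTCAgg

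Lin28a, Lin28b, Igf2bp3, Trim71, Mycn and Arid3b had at least 1 peak that overlapped the 3′UTR on the strand of the gene in all 3 libraries, which is 6 of 10, with as few as 1 or 2 peaks in replicate 1 in Lin28a, Igf2bp3 and Arid3b. Igf2bp1 had one in 2 libraries, Igf2bp2 in 1, and Hmga1 and Hmga2 in none. Of all 21028 genes, 23.9% had 3′UTR peaks in each library. Long 3′UTRs gather more peaks, and among the 10509 genes with a 3′UTR of 913 to 6337 nt, the range of the 10 genes, the share was 37.2%, while 22.4% had no peak in any library. On the opposite strand, taken as background, 1 of the 10 genes (Lin28b) had 3′UTR peaks in each library, where the share of all genes was 2.63% and that of genes in the same length range 3.97%.

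The LIN28 pair carried peaks in all libraries, though in unequal number. Lin28b (chromosome 10, 3′UTR 45376620 to 45381064, 4445 nt) had 10, 42 and 15 peaks in replicates 1, 2 and 3, which covered 20.4%, 76.9% and 27.6% of the 3′UTR, or 41.6 ± 30.8% (mean ± SD, n = 3). Replicate 2 stood far above the others here. Lin28a (chromosome 4, 134003330 to 134006104, 2775 nt) had 2, 13 and 16 peaks that covered 5.91%, 48.5% and 52.8% of the 3′UTR, or 35.7 ± 25.9%. In this gene it was replicate 1 that stood apart, on the low side, as it did over all genes. Peaks covered 6.64%, 17.6% and 17.5% of the 3′UTR length of all genes in replicates 1, 2 and 3. One of the replicate 2 peaks in Lin28a was 5920 nt wide and touched 381 nt of the 3′UTR next to the stop codon. It was the only peak wider than 200 nt over a 3′UTR of these genes on their own strand.

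Among the IGF2BP genes only Igf2bp3 had peaks in each library. Igf2bp3 (chromosome 6, 49085223 to 49087341, 2119 nt) had 1, 12 and 13 peaks covering 4.77%, 46.6% and 41.4% of the 3′UTR, or 30.9 ± 22.8%. Igf2bp1 has the longest 3′UTR of the 10 genes (chromosome 11, 95957163 to 95963499, 6337 nt), and had 0, 1 and 3 peaks covering 0%, 1.45% and 3.85% of it. On the opposite strand of Igf2bp1 replicate 1 had 2 peaks over the 3′UTR, 1 of them 1426 nt wide, and their cover, 23.8%, exceeded that on the strand of the gene in every library. Igf2bp2 (chromosome 16, 22059009 to 22060792, 1784 nt) had 0, 2 and 0 peaks, with 9.7% of the 3′UTR covered in replicate 2. The libraries of Igf2bp3 did not overlap with those of Igf2bp1 in cover, the lowest of the former being 4.77%, from 1 peak, and the highest of the latter 3.85%. In number and density of peaks these 2 genes did overlap. Replicate 1 of Igf2bp3 had 1 peak (0.472 per kb) and replicate 3 of Igf2bp1 had 3 (0.473 per kb). In cover the libraries of Igf2bp3 did overlap with those of Igf2bp2.

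Trim71 (chromosome 9, 114507133 to 114512644, 5512 nt) had 8, 37 and 29 peaks covering 13.8%, 56.2% and 44.4% of the 3′UTR, or 38.1 ± 21.9%. Mycn has the shortest 3′UTR of the 10 genes (chromosome 12, 12936093 to 12937005, 913 nt), with 4, 4 and 5 peaks covering 27.1%, 49.9% and 39.4% of it, or 38.8 ± 11.5%. It showed the smallest spread relative to its mean among the 6 genes. Arid3b (chromosome 9, 57790356 to 57792515, 2160 nt) had 2, 6 and 5 peaks covering 6.9%, 23.7% and 20%, or 16.9 ± 8.84%, and was the lowest of the 6. Another annotated gene, Gm17231, lies opposite the whole Arid3b 3′UTR, and Malsu1 lies opposite 1529 nt of that of Igf2bp3. Replicate 1 gave the lowest cover in each of these 6 genes. It was also the lowest library over the 3′UTRs of all genes, which had 18460, 57718 and 57466 peaks in replicates 1, 2 and 3. Its total number of peaks was nevertheless higher than that of replicate 2.

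By mean cover, the order was Lin28b, Mycn, Trim71, Lin28a, Igf2bp3, Arid3b, Igf2bp2, Igf2bp1, and Hmga1 with Hmga2 at 0. Neighbours from Lin28b down to Igf2bp3 differed by less than their SD. Among the 10509 genes of similar 3′UTR length, 91.1% had a lower mean cover than Lin28b, 89.2% than Mycn, 88.6% than Trim71, 87% than Lin28a, 82.4% than Igf2bp3 and 67.2% than Arid3b. For Igf2bp2 and Igf2bp1 the shares were 42% and 33.2%. The median cover over the 10 genes was 5.34%, 35.2% and 23.8% in replicates 1, 2 and 3, where the genes of similar length had medians of 1.56%, 5.28% and 6.44%. The median density of peaks over the 10 genes was 2.34 ± 1.55 per kb of 3′UTR.

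**Figure D1:**
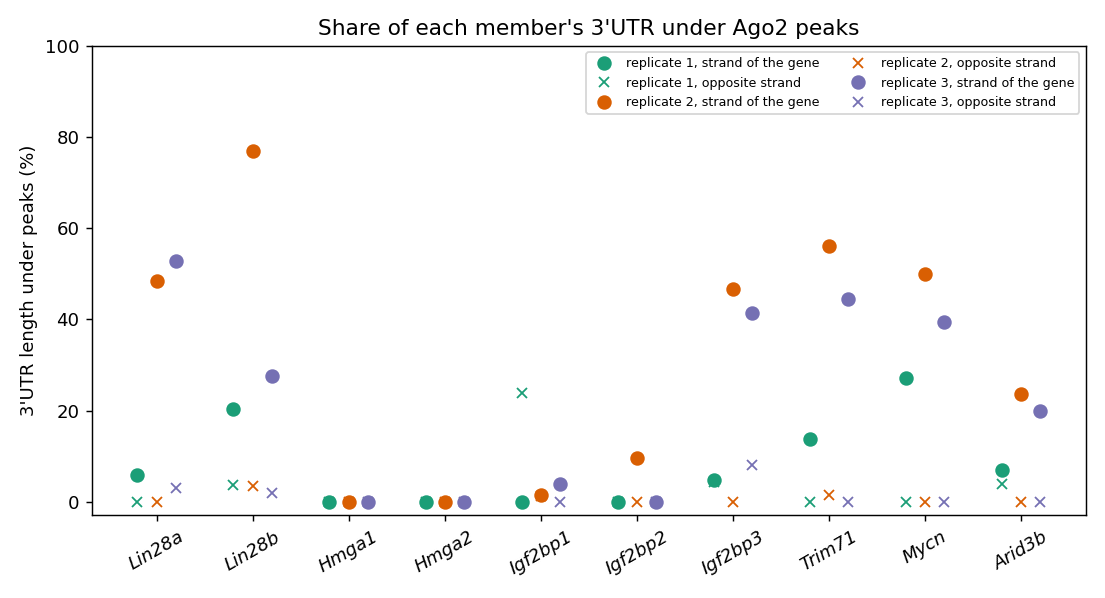
Percent of each gene's 3′UTR length under peaks (vertical axis) for the 10 genes, 1 point for each of the 3 libraries; filled circles are the strand of the gene and crosses the opposite strand. The 6 genes Lin28a, Lin28b, Igf2bp3, Trim71, Mycn and Arid3b have all circles above 0, from 4.77% to 76.9%, and Hmga1 and Hmga2 have all at 0.

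**Figure D2:**
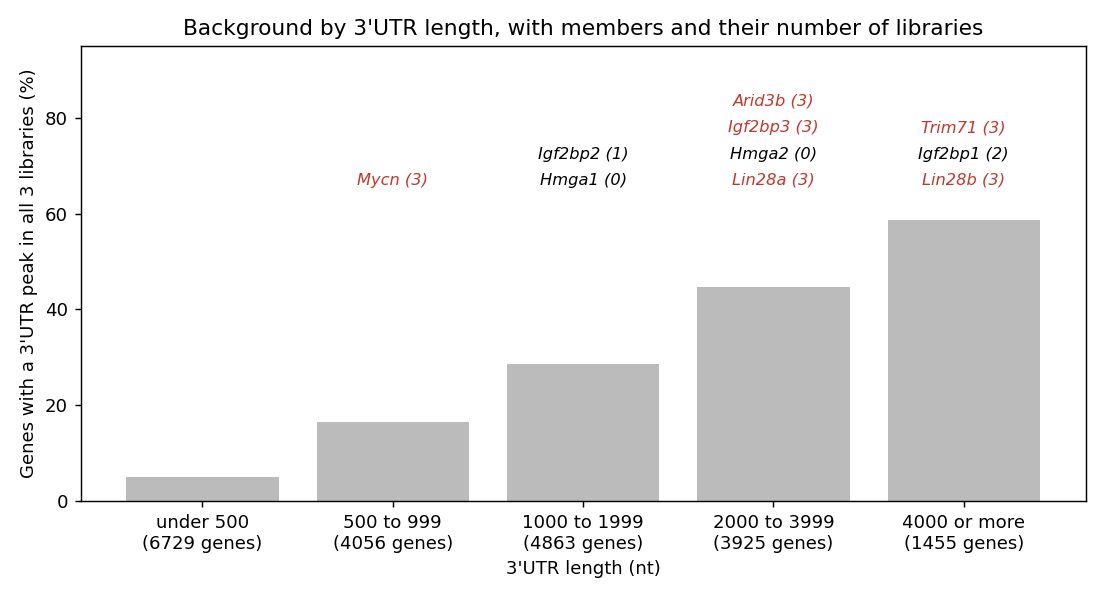
Percent of all protein-coding genes whose 3′UTR had a peak in each of the 3 libraries (grey bars) in classes of 3′UTR length, with the 10 genes written above their class and the number of libraries with a peak in brackets (red where it is 3). The bars rise from 5.13% to 58.6%, and the 2 longest classes hold genes of the 10 with and without a peak in every library.

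Hmga1 and Hmga2, without peaks, were also the genes with the least single-copy sequence in their 3′UTRs. Of all windows of 30 nt in the Hmga1 3′UTR (chromosome 17, 27562492 to 27563674, 1183 nt), 7.8% occurred once in the 21 nuclear chromosomes. Most of the others had a copy in Hmga1b, a second Hmga1 gene on chromosome 11 (3′UTR copy at 120763213 to 120764395), where replicates 1, 2 and 3 had 0, 0 and 1 peaks. In the Hmga2 3′UTR (chromosome 10, 120361275 to 120364288, 3014 nt), 49.1% of windows occurred once, and the largest copy overlapped the processed pseudogene Gm38158 on chromosome 1, with 2, 0 and 0 peaks on either strand. In the other 8 genes the share of single-copy windows was 83.6% in Lin28a, 92.8% in Mycn, 93.9% in Trim71 and from 98.5% to 100% in the rest, Igf2bp1 and Igf2bp2 included. How the alignment dealt with reads that match several places is not given in the sources used here, so for Hmga1, and for much of Hmga2, an absent peak and an unplaced read cannot be told apart.

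Outside the 3′UTR, intronic peaks favoured the strand of the gene in some genes and not in others. Lin28b had 74, 44 and 137 intronic peaks on its own strand and 17, 9 and 14 on the opposite strand. Igf2bp3 had 34, 29 and 35 against 18, 10 and 11. In both genes every library had more peaks on the strand of the gene. Hmga2, whose introns are also long, had 14, 11 and 15 against 8, 13 and 11, and Igf2bp2 10, 15 and 16 against 15, 3 and 14, with an excess on the opposite strand in 1 library each. Trim71 had 13, 1 and 24 against 7, 2 and 7, and Igf2bp1 2, 5 and 5 against 8, 1 and 4. Lin28a, Hmga1, Mycn and Arid3b had at most 8 intronic peaks in a library. Lin28a had 3, 2 and 5 against 2, 0 and 0, more on its own strand in every library. Arid3b had 8, 2 and 5 against 3, 3 and 3, Hmga1 2, 0 and 1 against 0, 1 and 2, and Mycn 0, 0 and 0 against 0, 1 and 0. Summed over the 10 genes, the strand of the gene had 2.05, 2.53 and 3.68 times as many intronic peaks as the opposite strand in replicates 1, 2 and 3, and 4.33, 28.8 and 21 times as many 3′UTR peaks. Lin28b alone held 74, 44 and 137 of the 160, 109 and 243 intronic peaks on the strand of the gene, so the intronic sums lean on it. No intronic ratio over all genes is given here, so no difference from other genes can be read from these values.

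**Figure D3:**
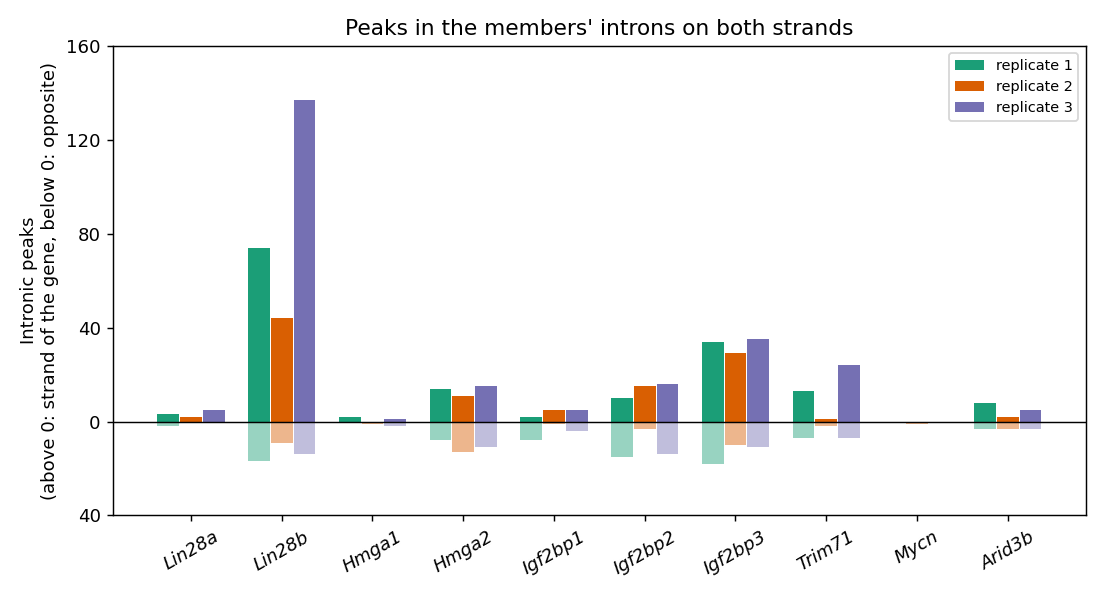
Number of peaks with their midpoint in an intron of each gene, upwards for the strand of the gene and downwards (paler) for the opposite strand, 1 bar for each of the 3 libraries. Lin28b rises to 137 peaks in replicate 3 with 14 on the other strand, and the bars of Hmga2 reach about as far down as up.

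Coding sequence held few peaks. Those with a peak midpoint there in all libraries were Trim71, with 1, 6 and 5, and Mycn, with 4, 3 and 1, where 19.4% of all genes had one in all libraries. Igf2bp3 had 0, 3 and 4 and Lin28b 0, 1 and 4. Peaks in 5′UTRs were rarer still, 2, 9 and 2 over all 10 genes, and 1, 5 and 1 of them lay in Trim71. Of all peaks in the 10 genes on their own strand, 28.2 ± 17% had their midpoint in the 3′UTR, and on the opposite strand 7.07 ± 1.48%.

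The peaks over these 3′UTRs were narrow. In replicates 1, 2 and 3 they had a median width of 94, 99 and 92.5 nt, where it was 89, 97 and 98 nt over the 3′UTRs of all genes. Of them, 85.2%, 83.8% and 70.9% were 86 to 200 nt wide, against 57.6%, 77.5% and 78.1% for all genes. These shares rest on 27, 117 and 86 peaks in the 10 genes.

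A site was counted as under a peak where its whole 7 nt match was covered. Of the 22 let-7 sites, 1 was under peaks in all libraries, 5 in 2 libraries, 5 in 1 library and 11 in none. Over all 3′UTRs, 1.79% of 2179 sites were under peaks in all libraries and 10.6% in at least 2, where the 10 genes had 6 sites of 22. The 6 genes with 3′UTR peaks in each library held 12 of the 22 sites, the 1 and the 6 among them, and over all genes with such peaks the shares of sites were 4.58% and 22.1%. These 6 genes were picked by their peaks, so this is a description only. The single site in all libraries was the 7mer-m8 of Arid3b, which starts 2148 nt after the stop codon in a 3′UTR of 2160 nt and so lies at its very end. Arid3b was thus the 1 gene of the 9 with a site that had one covered in all libraries, where the share over all genes with a site was 1.95%. The centre of this site was 4, 14 and 10 nt from the centre of the nearest peak in replicates 1, 2 and 3. The peaks of replicates 1 and 3 there began at 2104 and 2086 nt and were 88 and 112 nt wide. They therefore ran past the annotated end of this 3′UTR. The 7mer-A1 match of Arid3b at 846 nt was also under peaks in all libraries, 18, 48 and 18 nt from the peak centres. With 7mer-A1 matches counted in, 2 of 36 matches were under peaks in all libraries, both in Arid3b, where the share over all 3′UTRs was 2.45%. Among the 13 8mer sites alone none was, where the share was 2.46%, so the result depends on the kind of match counted. Without replicate 1, 5 sites in 4 genes were under peaks in both remaining libraries (8.35% over all 3′UTRs), and without replicate 3, 2 sites in 2 genes were (3.07%). The 7mer-A1 match of Arid3b at 1499 nt was under peaks in replicates 2 and 3.

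Trim71 had 4 sites, all 8mer, in 2 close pairs. Those at 166 and 3617 nt were under peaks in replicates 2 and 3, at 17 and 14 nt and at 22 and 12 nt from the peak centres. Those at 262 and 3591 nt were under a peak in replicate 3 alone. Replicate 1 had 8 peaks in this 3′UTR and none over a site. A 7mer-A1 match at 4369 nt was under peaks in replicates 2 and 3.

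Igf2bp3 had 1 site, an 8mer at 548 nt, under peaks in replicates 2 and 3 at 9 and 10 nt from their centres. In replicate 1 the only peak of the 3′UTR, 101 nt wide, ran from 453 to 553 nt and ended inside this match, which then counted as not covered. When a touch of 1 nt was enough, the site was covered in all libraries. The same stretch was the only one of the Igf2bp3 3′UTR under peaks in all libraries.

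Lin28b had 4 sites, and replicate 2 covered each of them. The 7mer-m8 at 2410 nt was also under a peak in replicate 1, at 4 and 2 nt from the peak centres in replicates 1 and 2. The 7mer-m8 at 2582 nt was under peaks in replicates 2 and 3, at 3 and 6 nt. The 8mer at 36 nt and the 7mer-m8 at 3998 nt were under a peak in replicate 2 alone, and the former was the only 8mer in this 3′UTR. The 7mer-A1 match at 4188 nt was under peaks in replicates 2 and 3. A further match in the Lin28b coding sequence was under peaks in replicates 2 and 3, but the peak of replicate 2 there was 4762 nt wide.

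Lin28a had 8mer sites at 909 and 1547 nt. The second was under a peak in replicate 3 alone. The first was wholly covered in no library, and a peak of replicate 2 that began at 911 nt covered it in part. None of the 24 windows of 30 nt over this match occurred once in the genome, and a stretch of this 3′UTR has a copy on chromosome 7. Mycn had no site, and of its 2 7mer-A1 matches the one at 501 nt was under a peak in replicate 1 alone.

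The 10 sites of the other 4 genes were under no peak in any library. Hmga2, the textbook let-7 target, had 4 sites and 3 7mer-A1 matches, and the 8mer at 58 nt lay wholly in sequence with a copy elsewhere. For the 7mer-m8 at 1295 nt all 24 windows occurred once. Igf2bp1 had 4 sites, 3 of them 8mer. The replicate 3 peak nearest to its 8mer at 1715 nt ended at 1711 nt. Igf2bp2 and Hmga1 had 1 site each.

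**Figure D4:**
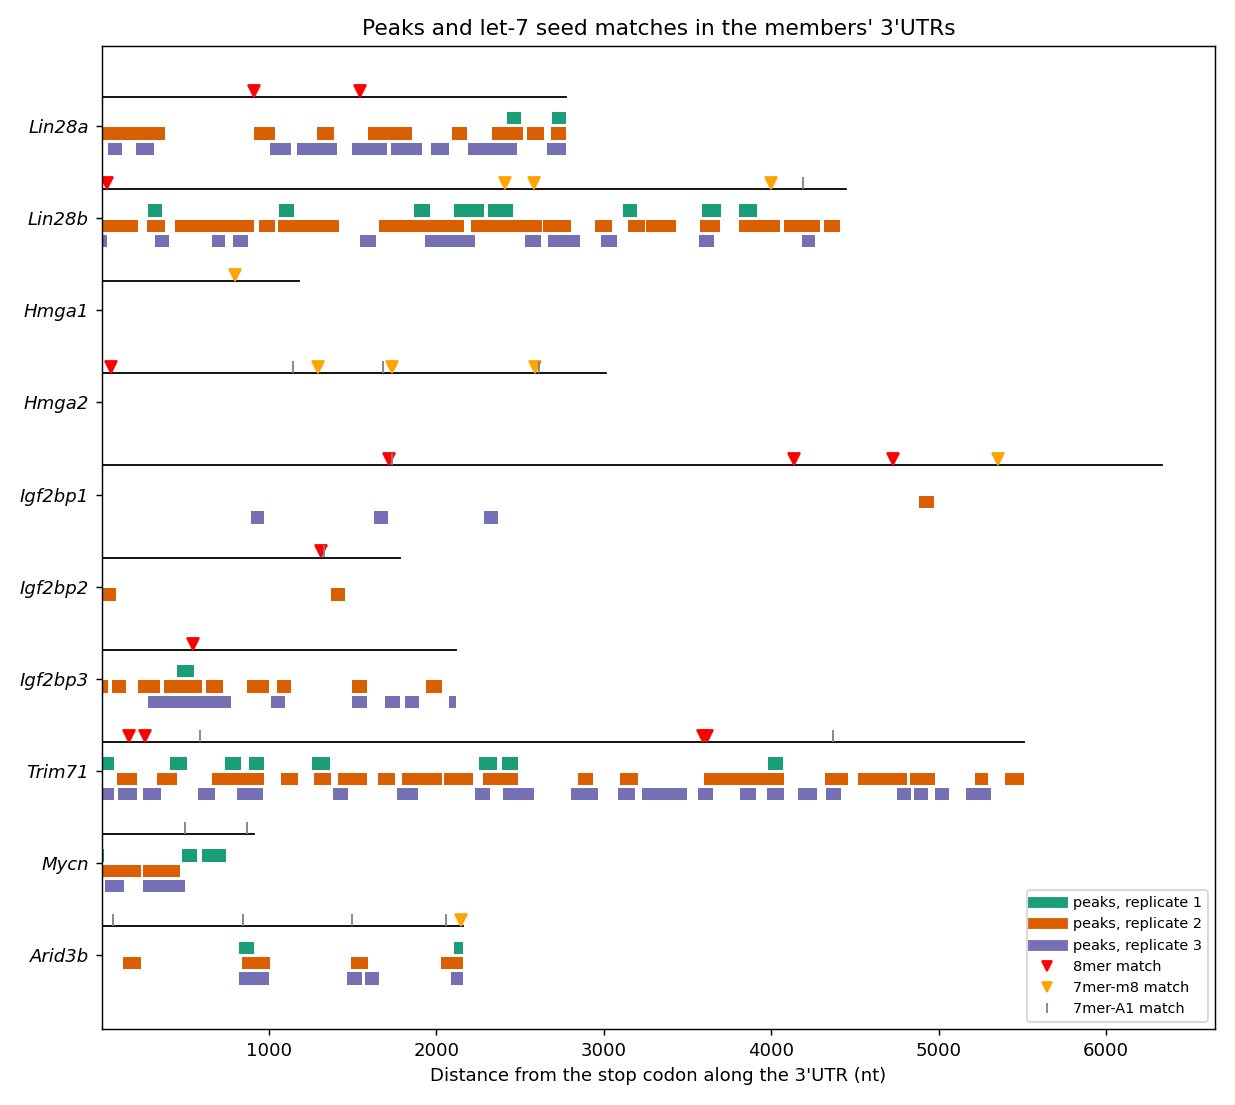
Map of the 3′UTRs of the 10 genes, drawn to scale from the stop codon (left, nt); bars show the stretches under peaks on the strand of the gene in replicates 1, 2 and 3, and marks above each line show 8mer (red), 7mer-m8 (orange) and 7mer-A1 (grey) matches. The 7mer-m8 at the end of Arid3b and its 7mer-A1 at 846 nt have bars of all 3 colours beneath them.

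The share of sites under peaks was set against the share of the same 3′UTR length under peaks. In replicate 1, 2 of 22 sites (9.09%, 95% Wilson interval 2.53 to 27.8%) and 7.68% of the length were covered. In replicate 2 it was 8 of 22 sites (36.4%, 19.7 to 57%) and 33.3% of the length, and in replicate 3 again 8 of 22 sites and 23.3% of the length. The ratio of the shares was 1.18, 1.09 and 1.56, or 1.28 ± 0.248 (n = 3), and in each library the share of the length lay inside the interval of the share of sites. The intervals cover counting error only and treat sites as independent, although several share a 3′UTR, and no test was made. After 30 nt had been trimmed from both ends of each peak the ratio was 2.35 ± 0.649, and with 8mer sites alone 0.967 ± 0.99. Over all 3′UTRs 6.56%, 20.7% and 16.8% of sites were covered, and the ratio was 0.988, 1.17 and 0.96.

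**Figure D5:**
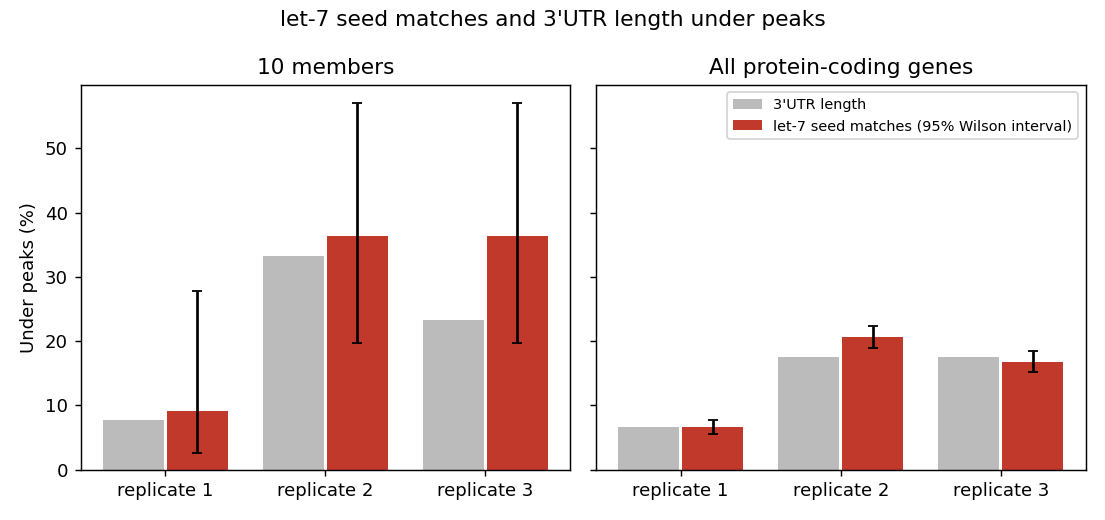
Percent of 3′UTR length (grey) and of let-7 seed matches (red) under peaks in each of the 3 libraries, for the 10 genes on the left and all protein-coding genes on the right; error bars are 95% Wilson intervals of the share of sites. The grey bars of the 10 genes lie within the intervals of the red bars in all libraries.

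Only wholly covered sites have a distance here, which keeps the distance below about that from the centre to the edge of the peak. Over the 18 pairs of a site and a library that covered it, the median distance from the centre of the nearest peak was 10 nt, the farthest was 38 nt, and the median width of these peaks was 98 nt. For all genes the median distance was 19 nt over 957 such pairs. Sites in 1 3′UTR share their peaks and their library, so the pairs are not independent and no test was made.

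Stretches of at least 8 nt under peaks in all libraries numbered 15 in the 10 genes, or 0.496 per kb of 3′UTR, where genes of the same 3′UTR length range had 0.266 per kb. Lin28b and Trim71 had 5 each, with 221 and 328 nt in all, Lin28a and Arid3b 2 each (143 and 133 nt) and Igf2bp3 1 (101 nt). Mycn had none. Its peaks covered 1 to 15, 480 to 569 and 601 to 742 nt in replicate 1, 1 to 238 and 251 to 468 nt in replicate 2, and 22 to 134 and 251 to 497 nt in replicate 3. Replicate 1 overlapped each of the other libraries at one place, but not at the same one. Of the 15 stretches, 1 held a let-7 site, at the end of the Arid3b 3′UTR, and 1 held a 7mer-A1 match, that of Arid3b at 846 nt. Over those genes of similar length, 0.426% of such stretches held a let-7 site. The 10 genes were chosen as let-7 targets and held 22 sites in 30242 nt of 3′UTR. The genes of similar length held 1646 in 23862279 nt, so the choice of genes alone sets these values apart and nothing is read from them.

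Other miRNAs with known roles in neural and growing cells were looked for in the same way, 13 seeds in all, with sequences from RefSeq. The neuronal miR-124-3p was also planned but had no entry under that name there, so its seed was not searched. Matches to miR-9-5p (13 in 8 of the 10 genes), miR-196a-5p (12 in 6) and to miR-30a-5p and miR-29a-3p (8 each) were the most frequent. A match was under peaks in all libraries in 3 cases, miR-30a-5p at 2473 nt in Lin28a, miR-26a-5p at 2292 nt in Trim71 and miR-196a-5p at 547 nt in Igf2bp3. Each lay in a stretch shared by all libraries. Over the 13 seeds together, 3 of 75 matches were under peaks in all libraries and 19 in at least 2, where the shares over all 3′UTRs were 2.29% and 12.7%. For miR-30a-5p, which had the most matches in at least 2 libraries, it was 5 of 8, 3 of them in Lin28b and 2 in Lin28a, and 16.2% over all 3′UTRs. The miR-196a-5p match begins 1 nt before the let-7 match where both occur, and 11 of its 12 matches overlapped a let-7 site, those in Igf2bp3 and at 2409 nt in Lin28b among them. Peaks there cannot be told apart between the families.

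The wider let-7 pathway was described from lists of known genes, chosen with earlier results of these data known. Of 23 other genes widely known as let-7 targets, among them the growth factor receptor genes Igf1r and Insr and the RAS genes, 20 had 3′UTR peaks in each library (87%). Their median 3′UTR was 3475 nt long. Of all genes with a 3′UTR of 2000 nt up to 4000 nt, 44.7% had a peak in all libraries. The exceptions were Cdk6 (2 libraries), Hras and Acvr1c (1 each). The list of 23 held 26 let-7 sites in 16 genes. Of these sites, 1 was under peaks in all libraries, in Plagl2, a zinc finger gene with 14, 27 and 13 peaks. The share of sites was 1.79% over all 3′UTRs and 4.58% over genes with 3′UTR peaks in each library. Nr6a1, a nuclear receptor gene of germ cells, had 8 sites, of which 0, 2 and 3 were covered in replicates 1, 2 and 3. Over all 3′UTRs 6.56%, 20.7% and 16.8% of sites were covered in these libraries. Of 8 genes that make, tag or degrade let-7 precursors, with Dicer1 in both lists, 3 had a peak in all libraries, Xpo5 (which exports the precursors), Dicer1 (which cuts them) and Tut4 (which tags them for decay with LIN28). The list had a median 3′UTR of 982 nt, and the share of all genes was 16.5% for 3′UTRs of 500 nt up to 1000 nt and 28.7% for 1000 nt up to 2000 nt. Dis3l2, the nuclease that degrades the tagged precursor, had none in a 3′UTR of 350 nt.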

How the data were processed

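Ago2 HITS-clip libraries of N2A cells were deposited by the authors as 1 peak table with coordinates, strand, replicate and a score per peak. The deposited score ran from 54.5714 to 60, and its meaning, the peak caller and its threshold are not given in the sources used here. The submitters' processing notes name FastQC, cutadapt, STAR and mm10, which was read as GRCm38. Starts were counted from 0, and the lowest was -30.

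The longest 3′UTR of any protein-coding transcript of each gene (GENCODE M21, stop codon left out) was overlapped with peaks of the same strand in Python 3.11.15 with numpy 2.4.6, pandas 2.3.3, scipy 1.17.1 and pysam 0.24.0. A seed match was under a peak when wholly covered. Common stretches had at least 8 nt. Planted sites in simulated tables were tested, and 200 of 200 were recovered. The 10 genes were named by their names, with each match under peaks in at least 2 libraries or else 1 match per gene, and the 5 other genes with the most matches under peaks in all libraries. Some listed marker genes are not reported here by name. The genes and lists were chosen with earlier results of these data known. With 1 group of 3 libraries no test was made. Alternatives changed peak width, trimming, score, strand, 3′UTR model, overlap, match type and libraries.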

Additional observations from a re-analysis of the deposited data

How the results depend on the processing

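Depth is unknown, so absent peaks set no limit on binding, and 3 libraries of 1 group limit the precision. No paired analysis was possible because there is only 1 group. Of 100 alternative values for 9 results, 61 stayed within 1 SD between replicates, the 95% Wilson interval of a share or 1.5 times a count, 38 moved further and 1 turned its direction. The same 6 genes were called with only peaks 86 to 200 nt wide, trimmed peaks, peaks over 1000 nt left out, the highest score, merged exons, and an overlap of 30 nt. The cause of the other changes was not tested.

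On the opposite strand, 1 gene had peaks in all libraries, and 0 let-7 sites in 0 genes were under them. The ratio of site to length cover was 2.43 ± 2.2, an SD nearly as large as the mean. Median density and median cover were 0, and 7.07% of peaks lay in 3′UTRs. There 2.63% of all genes and 0.0459% of all let-7 sites were called. Counting at least 2 libraries gave 6 sites in 4 genes, 42.1% of all genes and 10.6% of all sites, which follows from the looser rule. A touch of 1 nt gave 2 sites in 2 genes and 2.25% of all sites. With 8mer sites alone, 0 sites in 0 genes were called, the ratio was 0.967, and 2.46% of all sites were called. With 7mer-A1 matches added it was 2 sites and 2.45% of all. Trimming by 30 nt gave a ratio of 2.35 and 0.78% of all sites, and the median cover of the 10 genes fell from 21.4% to 8.66%. Over all genes, peaks of 86 to 200 nt gave 16.9% of genes and 0.872% of sites, the highest score 23.2% and 1.24%, peaks over 1000 nt left out 22.7% of genes, and merged exons 25% of genes.

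Leaving out each replicate in turn gave 6 to 7 genes with peaks (Igf2bp1 added without replicate 1), 1 to 5 sites in 1 to 4 genes, ratios of 1.14 to 1.37, 1.72 to 3.21 peaks per kb, a median cover of 14.6 to 29.5%, 18.9 to 35.5% of peaks in 3′UTRs, 26.1 to 36.6% of all genes and 2.75 to 8.35% of all sites.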

Other observations

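Outside the 10 genes, those with the most let-7 sites under peaks in all libraries were Cbx5, a heterochromatin protein gene, with 2 of 2 sites, and Ago2 itself with 2 of 3, and 29 further genes had 1 of 1, of which Cemip2, Chchd3 and Dkk3 come first by alphabet. Peaks covered 37.8%, 79.3% and 76.5% of the Cbx5 3′UTR and 25.9%, 80.8% and 75.3% of that of Ago2 in replicates 1, 2 and 3. Of 12 hairpins named let-7a to let-7i or miR-98 (those of let-7k and miR-1961, which share the seed, were not counted), 4 had a peak on their own strand in all libraries, 1 in 2 libraries, 4 in 1 and 3 in none, where 15.9% of 1005 miRNA hairpins in the RefSeq table had one in all libraries, and on the opposite strand 0 had a peak in all libraries.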
